A study of Homo sapiens with 15 samples.

Results

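Peak calls were followed around RUNX1, RUNX2, RUNX3 and CBFB in the human pancreatic adenocarcinoma line HPAF-II by ATAC-seq, an assay in which a transposase cuts and tags DNA that is not packed away in chromatin. The members were the 3 RUNX genes and CBFB, whose protein is their partner; they were chosen because a region inside RUNX1 stood out as called with DMSO and not with Lgk974 in lists cut to equal length, and every region of open chromatin inside the genes or within 50 kb of either end was then taken. This gave 121 regions of 222814 found in the whole series: 63 around RUNX1, 22 around RUNX2, 14 around RUNX3 and 22 around CBFB. The cells had received 1 µM Lgk974 for 24 h (4 libraries) or 48 h (3 libraries), or the solvent DMSO for 24 h (4 libraries) or 48 h (4 libraries). Lgk974 blocks porcupine, an enzyme that attaches the lipid WNT proteins need to leave the cell, and the comparisons ask how open chromatin differs in cells so treated. All 15 libraries came from the same line, and the labels do not say whether replicates were separate cultures; p-values therefore reflect the spread between these samples alone, and that spread may be technical. Peaks on hg38 had been listed for each library separately; a region was called in a library where at least 1 peak of that list overlapped it. No read counts were used and sequencing depth is unknown, so a region without a call may be open below that library's threshold.

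RUNX proteins are transcription factors that recognise DNA through their Runt domain, at a core sequence TGTGGT, which reads ACCACA on the other strand. CBFB binds no DNA itself; it holds on to the Runt domain and strengthens its grip on DNA, so all RUNX factors depend on it. RUNX1 is known as a master regulator of blood stem cells, RUNX2 of bone-forming cells and RUNX3 of T cells, sensory neurons and the gastric epithelium, and in mouse models of pancreatic ductal adenocarcinoma RUNX3 has been described as a regulator of metastatic spread. Each RUNX gene has a distal and a proximal promoter that start different transcripts. Accessibility of a region says nothing directly about RNA or protein.

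The lists held 53610 to 127886 peaks, and a longer list calls more regions. Comparisons are therefore given with all deposited peaks and, where stated, with the top 53610 peaks of each library by deposited −log10 p, the length of the shortest list (equal lists). DMSO 24 h replicate 3, Lgk974 24 h replicate 3 and Lgk974 48 h replicate 3 stood apart, with a mean Jaccard overlap with the other libraries of 0.377, 0.513 and 0.478, against 0.583 to 0.656 in the other 12. As a check of the labelled line, a peak lay within 1 kb of an end of 8 of 10 pancreatic ductal epithelium genes in all 15 libraries (KRT19, KRT7, KRT8, KRT18, EPCAM, CDH1, SOX9 and MUC1); CFTR had one in none. Of 8 blood genes 3 had such a peak in all 15 libraries and CD4 in none, and of 8 bone and mesenchyme genes 4 did and IBSP in none.

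The 4 genes lay in chromatin of unlike density. The RUNX1 window (chr21:34787801-35049302 plus 50 kb on either side) held 17.4 regions per 100 kb, above 85.7% of 19974 protein-coding genes, whose median was 11.3. CBFB (chr16:67029149-67101058) held 12.8, RUNX3 (chr1:24899511-24965138) 8.5 and RUNX2 (chr6:45328330-45551082) 6.8 regions per 100 kb, at percentiles 60.3, 32.1 and 23.1. Regions called in every one of the 15 libraries numbered 18 around RUNX1, 5 around RUNX2, 2 around RUNX3 and 5 around CBFB, together 30 of 121 (24.8%), against 15.9% of all regions. Among the equal lists 25 of 68 member regions (36.8%) were called in all 15 libraries, against 30.3% of all regions. Regions called in a lone library made up 19.0% of the members and 39.5% of all regions. The median member region was 472 bp wide, against 395 bp over all regions.

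The 50 kb limit sets who is a member, so the regions on either side of it are given as description. Around RUNX1 the outermost member lay 43569 bp from the gene (5 of 7 Lgk974 against 3 of 8 DMSO libraries) and the first region beyond the limit 50771 bp (0 and 1). Around RUNX2 these were 47921 bp (2 Lgk974, 4 DMSO) and 56681 bp (5 and 8), around RUNX3 49521 bp (2 Lgk974, 0 DMSO) and 50581 bp (7 and 8), and around CBFB 49467 bp (1 Lgk974, 5 DMSO) and 50763 bp (2 and 2). Some windows hold other genes: CES4A overlapped 5, PHAF1 5 and B3GNT9 1 of the CBFB regions, SUPT3H 2 of the RUNX2 regions, and the non-coding RUNX1-AS1 and LINC01426 10 and 6 of the RUNX1 regions. A region's place near a gene does not show which gene it acts on.

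**Figure D1:**
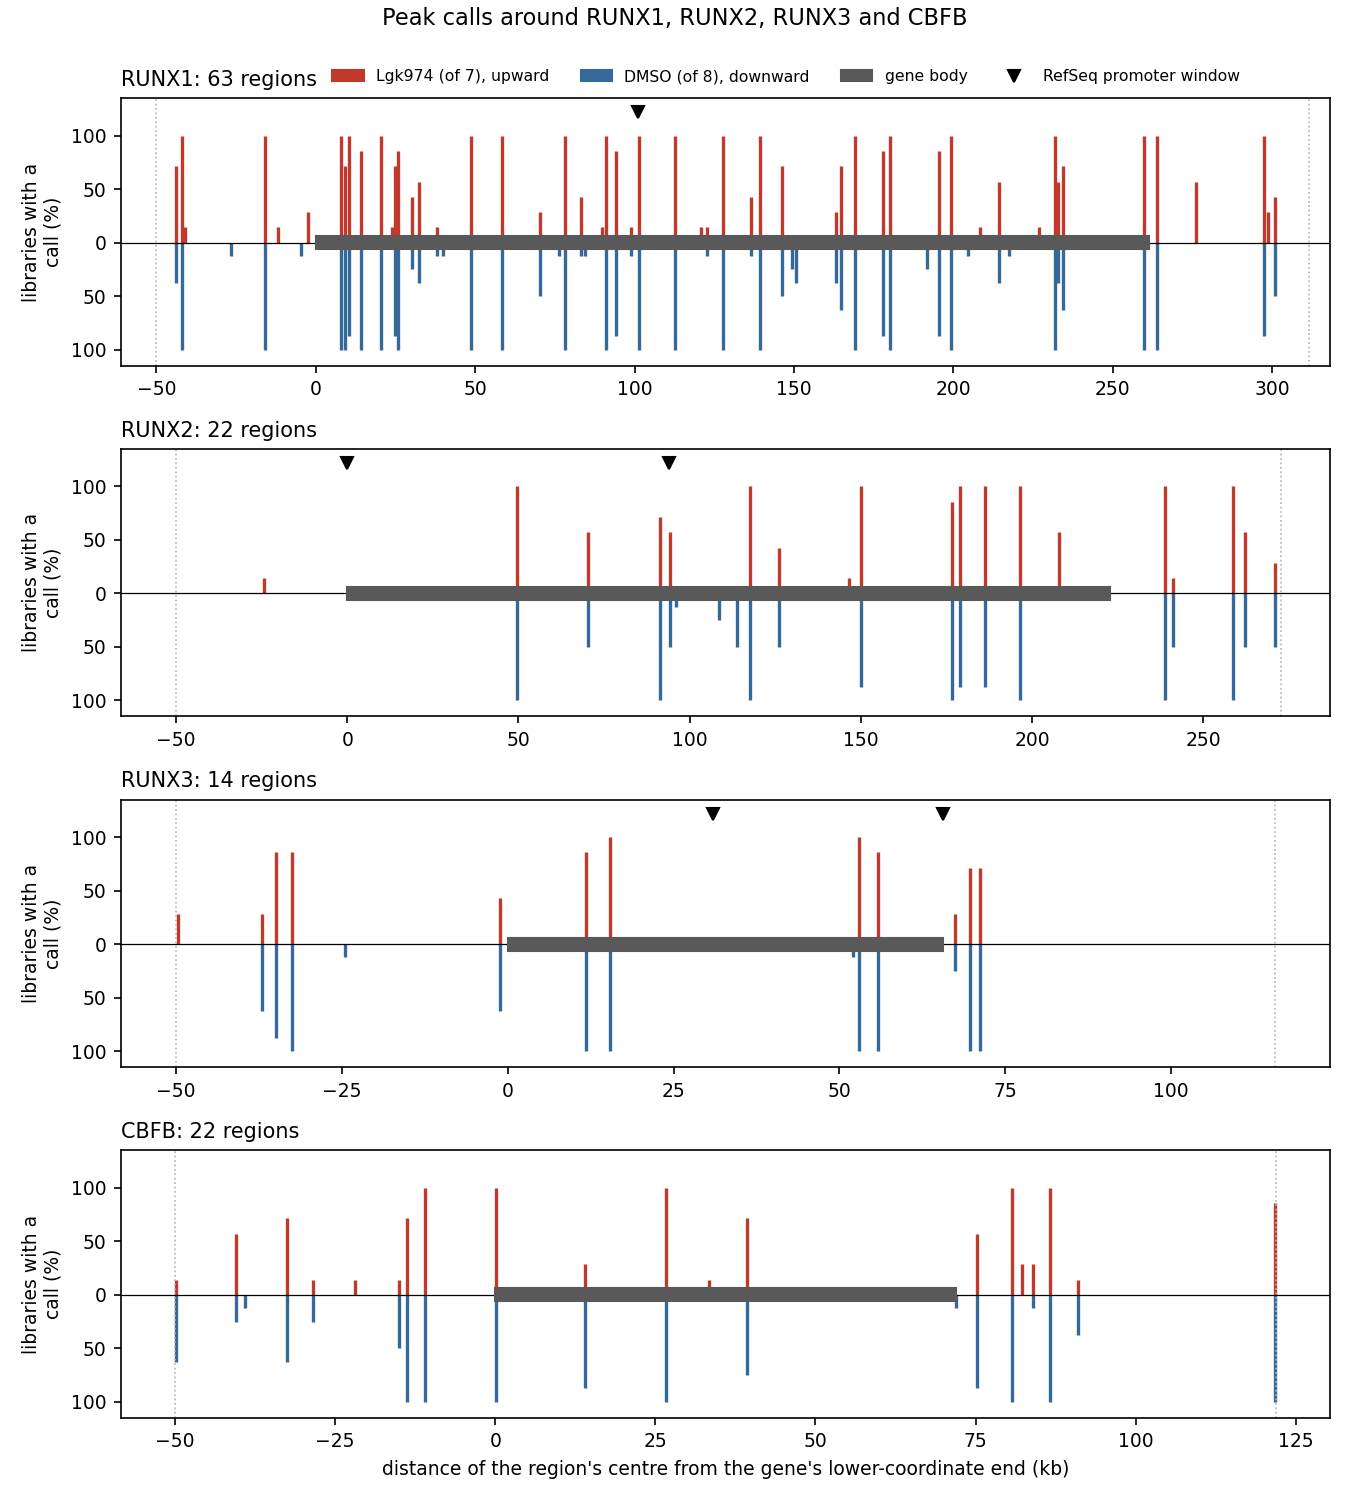
Calls around RUNX1, RUNX2, RUNX3 and CBFB. Each line is a region placed by the distance of its centre from the gene's lower-coordinate end (kb); its height is the percentage of libraries with a call, upward for Lgk974 (7 libraries) and downward for DMSO (8 libraries). Grey bars are the genes, triangles the RefSeq promoter windows and dotted lines the 50 kb limits; most of the lines that reach 100% do so on both sides, and the RUNX3 promoter windows and the upstream RUNX2 window hold no line.

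The promoters of the family were not alike in accessibility. RefSeq promoter windows on GRCh38.p14, from 250 bases before to 50 after a transcript start, were found for RUNX1 (1 window), RUNX2 (2) and RUNX3 (2). The RUNX1 window (chr21:34888650-34888949, minus strand) was called in 7 of 7 Lgk974 against 8 of 8 DMSO libraries, also in the equal lists. It lies in RUNX1-r32, the widest member region at 2378 bp (regions are numbered along the chromosome within each gene's window). The upstream RUNX2 window (chr6:45328080-45328379, plus strand) and the upstream RUNX3 window (chr1:24964961-24965260, minus strand) were called in 0 of 7 and 0 of 8 libraries. These 3 windows are printed 5′ to 3′ as examples of called and uncalled promoters, with the family's own recognition letters, ACCACA, in capitals. The RUNX1 window lies inside the gene, far from its upstream end, so the printed windows differ in position as well as in calls. The downstream windows of RUNX2 and RUNX3, which also lie inside their genes, are described below. The downstream RUNX3 window had no call either and holds no ACCACA. Whether ACCACA goes with a lack of calls was not tested.
RUNX1: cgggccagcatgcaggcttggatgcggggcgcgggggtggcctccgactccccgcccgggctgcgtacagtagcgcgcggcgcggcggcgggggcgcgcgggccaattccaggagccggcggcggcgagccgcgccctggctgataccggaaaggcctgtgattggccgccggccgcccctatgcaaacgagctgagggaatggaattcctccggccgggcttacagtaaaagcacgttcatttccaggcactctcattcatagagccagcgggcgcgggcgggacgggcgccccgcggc
RUNX2 upstream: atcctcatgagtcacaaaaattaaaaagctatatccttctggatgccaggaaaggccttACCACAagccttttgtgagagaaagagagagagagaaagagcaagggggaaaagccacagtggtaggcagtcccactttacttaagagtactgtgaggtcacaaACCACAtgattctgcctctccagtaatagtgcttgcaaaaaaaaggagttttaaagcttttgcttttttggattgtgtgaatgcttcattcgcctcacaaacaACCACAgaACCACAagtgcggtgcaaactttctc
RUNX3 upstream: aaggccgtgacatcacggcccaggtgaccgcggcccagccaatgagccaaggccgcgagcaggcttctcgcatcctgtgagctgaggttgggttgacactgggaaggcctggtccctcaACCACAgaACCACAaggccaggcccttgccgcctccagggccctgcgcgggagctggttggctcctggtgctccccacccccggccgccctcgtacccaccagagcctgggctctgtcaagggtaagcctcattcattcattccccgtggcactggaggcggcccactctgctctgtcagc
The RUNX1 window is rich in G and C (72.0%) with 40 CG dinucleotides and holds neither ACCACA nor TGTGGT. The upstream RUNX2 window has 42.7% G and C, 2 CG dinucleotides and 4 copies of ACCACA, and the upstream RUNX3 window 66.3%, 15 and 2 copies. The upstream windows of RUNX2 and RUNX3 share an unbroken stretch of 18 bases, caACCACAgaACCACAag, with both copies of the motif in it; no other window of the 34961 in the table holds that stretch. ACCACA or TGTGGT, searched on both strands, occurred at least once in 13.1% of all windows, at least 2 times in 1.31% and at least 4 times in 0.0143%. CTTTGAT, a core letter run of the TCF factors that act at the end of WNT signalling, searched on both strands, occurred in 2.63% of all windows and in none of the 5 RUNX windows. A match of letters is a description and not a binding site.

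The downstream RUNX2 window (chr6:45422025-45422324; 76.0% G and C, 39 CG dinucleotides, no ACCACA) was called in 4 of 7 Lgk974 against 4 of 8 DMSO libraries, and in the equal lists in 0 of 7 and 1 of 8; that 1 library was DMSO 24 h replicate 3, which stood apart. The downstream RUNX3 window (chr1:24930227-24930526; 76.0% G and C, 38 CG dinucleotides, no ACCACA) had no call in any library. Among the 11628 windows with at least 65% G and C in the table, 54.8% were called in all 15 libraries and 14.6% in none; among the 10676 with under 50%, 6.33% were called in all 15 and 79.8% in none. Both RUNX3 windows thus belonged to the smaller share of their class, those with no call, and the uncalled upstream RUNX2 window to the larger share of its class.

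The region inside RUNX1 that led to the choice of these genes is RUNX1-r10 (chromosome 21, 878 bp wide), 8787 bp inside the gene from its 3′ end and 91185 bp from the RefSeq promoter window, with peak summits between chr21:34796920 and chr21:34797060. Because it was chosen for its difference between treatments, its values are a description and carry no test. With all deposited peaks it was called in 3 of 4 Lgk974 against 4 of 4 DMSO libraries at 24 h and in 2 of 3 Lgk974 against 4 of 4 DMSO libraries at 48 h. The Lgk974 libraries without a call, replicate 3 of either time, have the shortest lists; without the 3 libraries that stood apart the region was called in 5 of 5 Lgk974 against 7 of 7 DMSO libraries, so with all peaks no difference in calling was left. The difference in calling share, −29.2 percentage points with all libraries, was −16.7 when Lgk974 24 h replicate 3 was left out and −12.5 when Lgk974 48 h replicate 3 was.

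The groups differed at RUNX1-r10 in the place of its peak within each list; ranks in lists of unlike length are given as description, and the equal lists make the comparison. At 24 h its peak ranked 68631, 76269 and 71092 in Lgk974 replicates 1, 2 and 4, against 46998, 35722, 45061 and 24816 in DMSO replicates 1 to 4 (1 is the most significant peak of the list). At 48 h it ranked 60757 and 74321 in Lgk974 replicates 1 and 2, against 33140, 40791, 27736 and 25890 in DMSO replicates 1 to 4. As a share of the list, the Lgk974 ranks lay at 72.1% to 77.1% at 24 h and 59.1% to 60.5% at 48 h. The DMSO ranks lay at 32.3% to 44.3% at 24 h and 29.9% to 38.9% at 48 h. These ranges leave out Lgk974 replicate 3 of either time, which had no call. They did not overlap, but the region was chosen for its difference between treatments. How many of all regions have ranks that do not overlap was not counted. With equal lists RUNX1-r10 was called in 0 of 7 Lgk974 against 8 of 8 DMSO libraries. Without the 3 libraries that stood apart this was 0 of 5 and 7 of 7. Over all regions of the equal lists, 0.0387% (35 of 90465) were called in every DMSO and no Lgk974 library, and 0.106% (96) in every Lgk974 and no DMSO library.

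The peaks inside RUNX1-r10 were 288, 418 and 341 bp wide in Lgk974 24 h replicates 1, 2 and 4 and 405 and 307 bp in Lgk974 48 h replicates 1 and 2, against 350 to 802 bp with DMSO at 24 h and 604 to 831 bp with DMSO at 48 h, so the widths overlapped at 24 h. Their summits lay 434, 422 and 354 bp from the start of the region in Lgk974 24 h replicates 1, 2 and 4. In Lgk974 48 h replicates 1 and 2 they lay at 355 and 472 bp, against 332 to 353 bp with DMSO. The summits at 354 and 355 bp thus lay next to the DMSO range, and Lgk974 replicate 3 of either time had no peak. How many of all regions differ in this way is not given here, and a shift of the summit was not tested. When a peak had to cover at least 0.5 of the region, 0 of 7 Lgk974 against 7 of 8 DMSO libraries kept a call. The region's extent is the union of its peaks, so this rule restates the widths and adds nothing to them. RUNX1-r9 (chr21:34795172-34796187), the region beside RUNX1-r10, was called in all 15 libraries in the full and the equal lists. It ranked within the top 2.72% to 11.02% of every list.

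**Figure D2:**
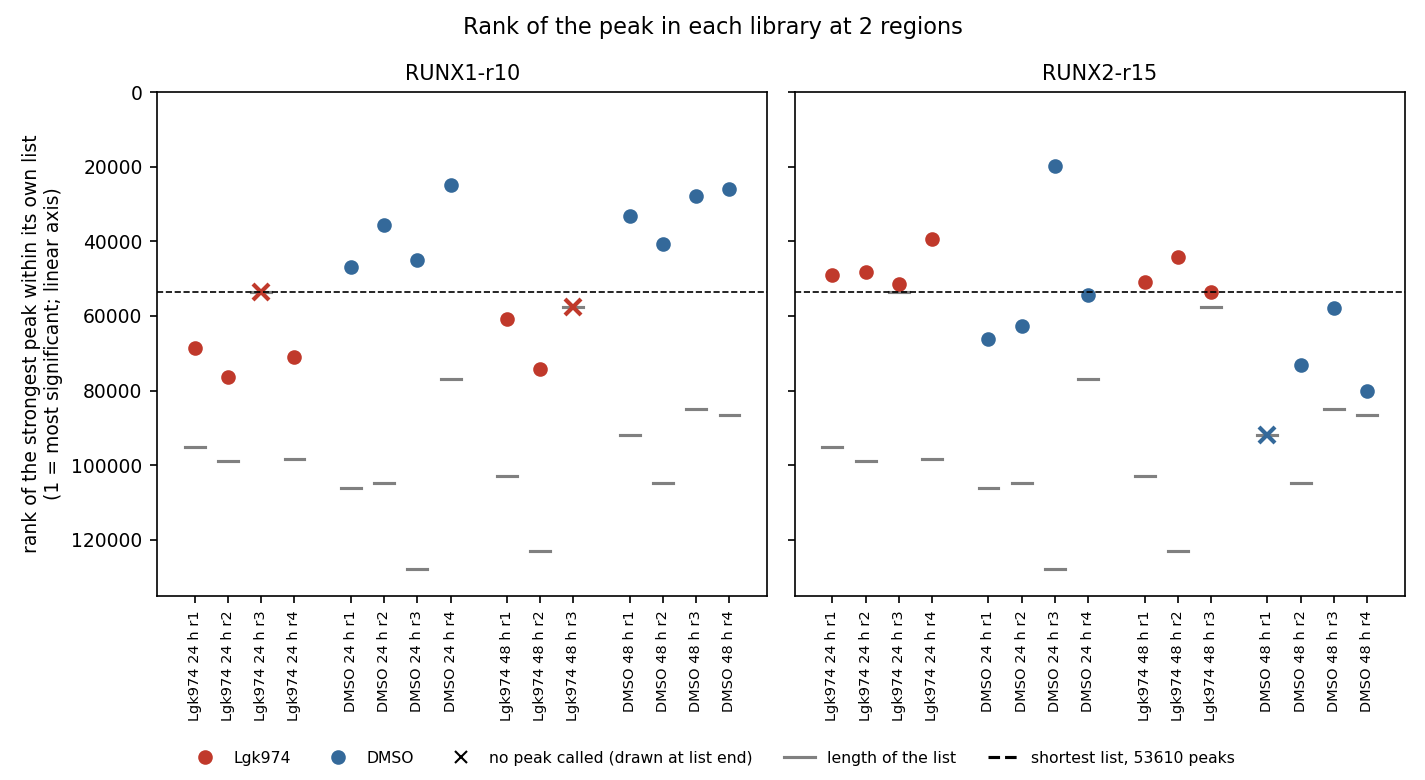
Rank of the most significant peak in RUNX1-r10 (left) and RUNX2-r15 (right) within each library's own list, on a linear axis with rank 1 at the top. Points are libraries, crosses libraries without a call (drawn at the end of their list), short lines the length of each list and the dashed line the shortest list (53610 peaks); at RUNX1-r10 every Lgk974 point lies below the dashed line and every DMSO point above it, and at RUNX2-r15 every Lgk974 point lies above it and every DMSO point except 1 below.

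As many as 34 other regions of the equal lists had the same calls as RUNX1-r10 in every library, and 20 of them also in the full lists, while 211 had the same calls in 14 libraries. Among these 20, the nearest genes of the 5 regions closest to a protein-coding gene end were GPR55, a lipid-sensing G protein-coupled receptor (chr2:230905420-230905885, 1443 bp from its end), ZDHHC22, a palmitoyltransferase (chr14:77128304-77129051, 2219 bp), VTI1B, a vesicle fusion protein (chr14:67642846-67643374, 3711 bp), GCOM1 (chr15:57582040-57582590, 9314 bp) and ARHGAP45, a GTPase-activating protein (chr19:1075330-1076048, inside the gene, 9371 bp from its end). Likeness is the number of libraries with an identical call, and a match is no sign of shared control.

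Other RUNX1 regions were called in every library of both treatments. The best ranked member region of all, RUNX1-r21 (chr21:34835981-34837131, where RUNX1-AS1 overlaps the gene), was called in all 15 libraries and ranked within the top 0.23% to 3.99% of each list. RUNX1-r58 (chr21:35046953-35048557), near the upstream end of the gene where the distal promoter lies, was called in all 15 libraries with all peaks and in 6 of 7 Lgk974 against 8 of 8 DMSO libraries in the equal lists. A peak reached within 1 kb of a RUNX1 end in 4 of 7 Lgk974 against 7 of 8 DMSO libraries (two-sided exact permutation test, p = 0.296) and in the equal lists in 1 of 7 and 5 of 8 (exact p = 0.0714). Over all genes, 6.15% of 4067 tested gene ends had an unadjusted p under 0.05 (11.0% of 2802 in the equal lists) and none passed the Benjamini-Hochberg adjustment.

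RUNX2 held the member region that leaned most towards Lgk974 in the equal lists. RUNX2-r15 (chr6:45514399-45514891, inside the gene) was called in 7 of 7 Lgk974 against 7 of 8 DMSO libraries with all peaks (exact p = 1.0), and in the equal lists in 7 of 7 Lgk974 against 1 of 8 DMSO libraries. At 24 h its peak ranked 48953, 48228, 51308 and 39454 in Lgk974 replicates 1 to 4, against 66186, 62822, 19914 and 54458 in DMSO replicates 1 to 4. At 48 h it ranked 50991, 44219 and 53467 in Lgk974 replicates 1 to 3, against 73243, 57778 and 80158 in DMSO replicates 2 to 4, with no call in DMSO replicate 1. The ranks of Lgk974 48 h replicate 3 and DMSO 24 h replicate 4 lay just on either side of the limit of 53610, so their calls in the equal lists turn on its exact place. The only DMSO library that called it among its top peaks was 24 h replicate 3, which stood apart. The difference in the equal lists was 87.5 percentage points (exact p = 0.00204, Benjamini-Hochberg adjusted p = 0.0631 over all tested regions). At 24 h it was called in 4 of 4 against 1 of 4 libraries (exact p = 0.143, calls that could not reach 0.05). At 48 h it was called in 3 of 3 against 0 of 4 (exact p = 0.0286, the smallest that 35 assignments give, adjusted p = 0.171). It failed the adjustment. Of all 19813 regions tested over both times in the equal lists, 10.1% were higher with Lgk974 at an unadjusted p under 0.05. With a −log10 q of at least 5 instead of equal lists, 5 Lgk974 and 6 DMSO libraries called RUNX2-r15 (−4.17 percentage points). Without the 3 libraries that stood apart RUNX2-r15 was called in 5 of 5 Lgk974 against 0 of 7 DMSO libraries of the equal lists, an alternative chosen after seeing the data. The libraries left out include the only DMSO library with such a call, so this adds nothing to the counts above.

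The strongest RUNX2 regions lay downstream of its promoters. RUNX2-r16 (chr6:45524244-45525217) and RUNX2-r9 (chr6:45445519-45446459) were called in all 15 libraries of both kinds of list, with median ranks at 11.02% and 11.15% of the list. RUNX2-r17 (chr6:45535961-45536352) was called in 2 of 4 Lgk974 24 h and 2 of 3 Lgk974 48 h libraries, against 0 of 8 DMSO libraries (exact p = 0.0306, adjusted p = 0.484). Among the top peaks RUNX2-r17 was called in 1 Lgk974 and 0 DMSO libraries. RUNX2-r8 (chr6:45441828-45442208) was called in 0 of 7 Lgk974 against 4 of 8 DMSO libraries (exact p = 0.0918), and RUNX2-r19 (chr6:45569351-45569917) in 1 of 7 and 4 of 8 (exact p = 0.186). No peak lay within 1 kb of an end of RUNX2 in any library.

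RUNX3 had the fewest regions and no peak within 1 kb of either end. Its constitutive regions were RUNX3-r8 (chr1:24914578-24915271, median rank at 17.5% of the list) and RUNX3-r10 (chr1:24952190-24952868, 35.2%, where RUNX3-AS1 overlaps the gene), each called in 15 of 15 libraries of both kinds of list. With all peaks the largest difference was at RUNX3-r2 (chr1:24862269-24862793), called in 2 of 7 Lgk974 against 5 of 8 DMSO libraries (exact p = 0.292), and no library called it among its top peaks. In the equal lists RUNX3-r3 (chr1:24864310-24864922) was called in 6 of 7 Lgk974 against 3 of 8 DMSO libraries (exact p = 0.112) and RUNX3-r11 (chr1:24955055-24955523) in 3 of 7 and 0 of 8 (exact p = 0.0918). RUNX3-r13 (chr1:24968874-24969442) and RUNX3-r14 (chr1:24970386-24970893), 3736 and 5248 bp beyond the gene's upstream end, were each called in 5 of 7 Lgk974 against 8 of 8 DMSO libraries with all peaks. Among the top peaks RUNX3-r13 was called in 4 of 7 and 5 of 8 libraries and RUNX3-r14 in 1 of 7 and 4 of 8. None of the RUNX3 regions had an unadjusted p under 0.05 in any comparison.

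CBFB was open at its start in every library. CBFB-r10 (chr16:67028464-67030087), which spans the gene's lower end, was called in 7 of 7 Lgk974 against 8 of 8 DMSO libraries in the full and the equal lists, while CBFB-r15 (chr16:67100998-67101251) at the other end was called in 1 DMSO library. CBFB-r12 (chr16:67055394-67056227), inside the gene, ranked within the top 26.5% of every list with a median of 4.39%, and CBFB-r9 (chr16:67017806-67018438) within the top 10.4% with a median of 6.89%. CBFB-r11 (chr16:67042862-67043309), inside the gene, was called in 1 of 4 Lgk974 against 4 of 4 DMSO libraries at 24 h and in 1 of 3 against 3 of 4 at 48 h (exact p = 0.0469 over both times, adjusted p = 0.566). Among the top peaks its place was called in 0 Lgk974 and 1 DMSO library. CBFB-r1 (chr16:66978924-66979682) was called in 1 of 7 Lgk974 against 5 of 8 DMSO libraries (exact p = 0.0959), and CBFB-r2 (chr16:66988340-66988980) in 4 of 7 and 2 of 8 (exact p = 0.194).

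**Figure D3:**
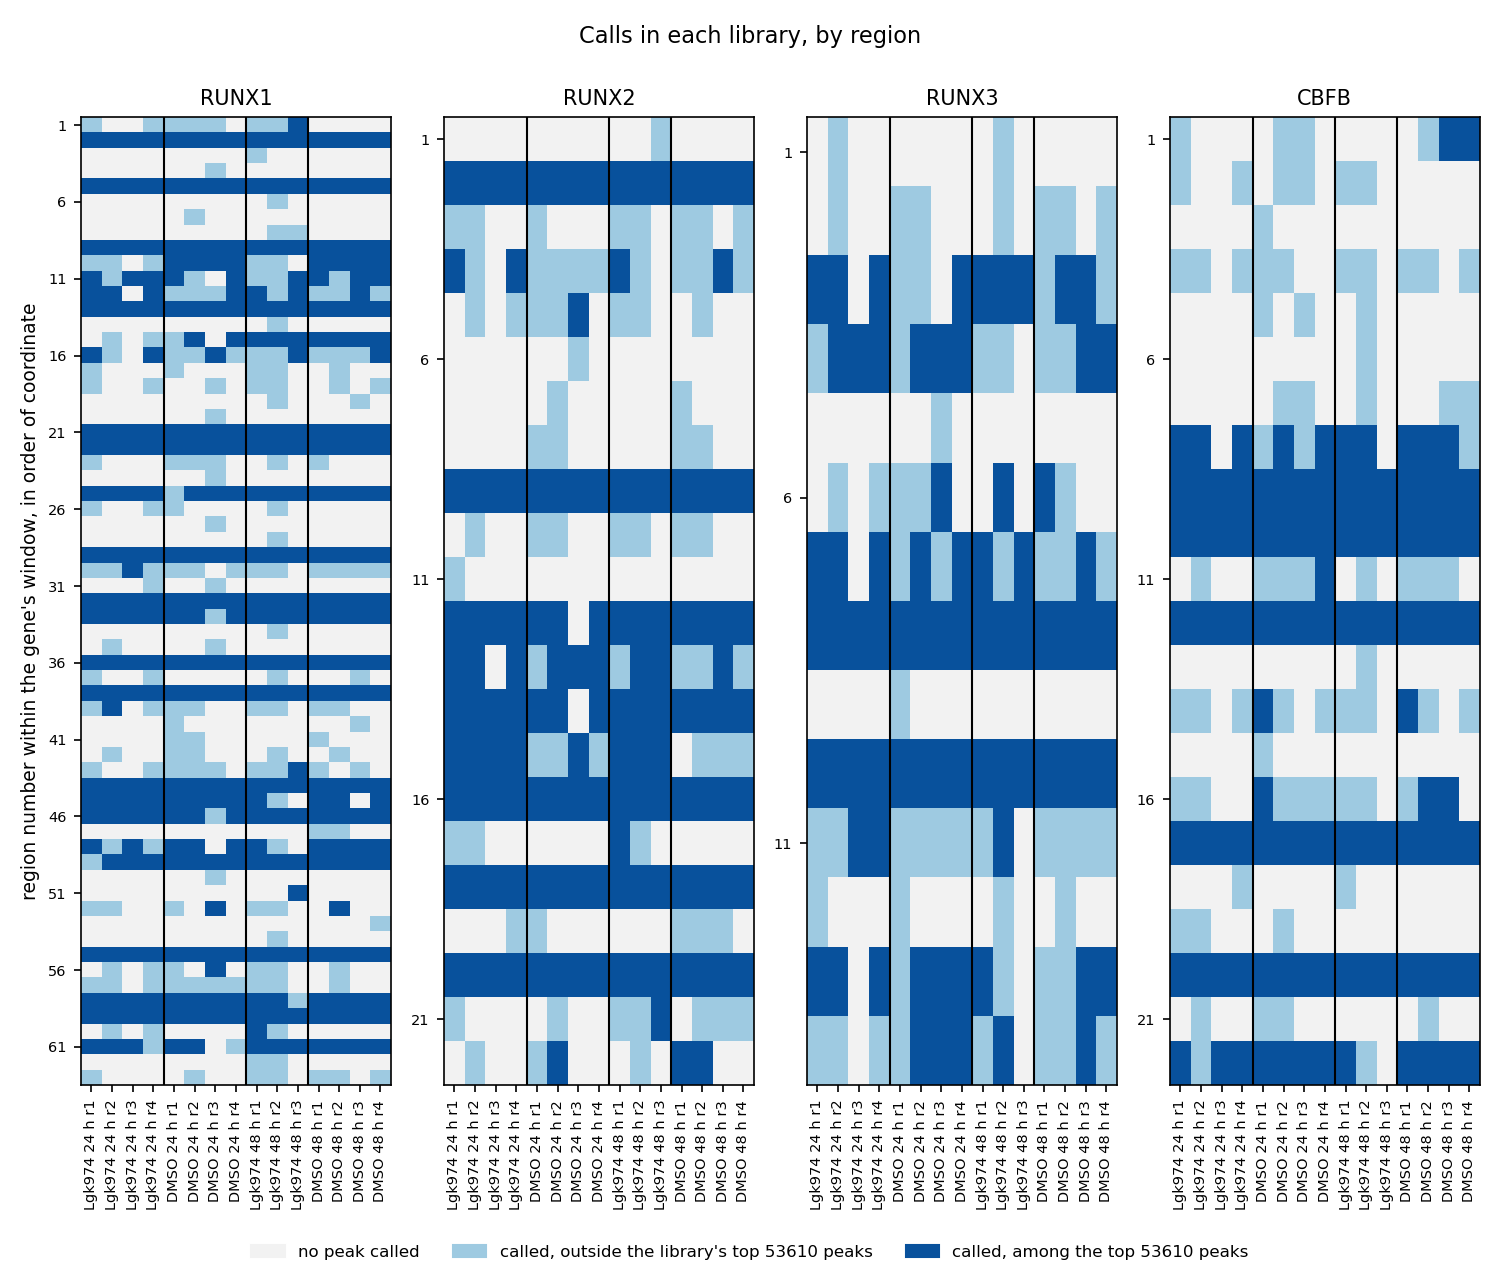
Calls in every library at the member regions, numbered in order of coordinate within each gene's window. Columns are libraries, Lgk974 left of DMSO at 24 h and then at 48 h; grey is no call, light blue a call outside the library's top 53610 peaks and dark blue a call among them. At RUNX1 row 10 the Lgk974 columns are light or grey and the DMSO columns dark, and at RUNX2 row 15 the Lgk974 columns are dark and the DMSO columns light or grey except for 24 h replicate 3.

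Taken over both times with all peaks, 32 of the 121 member regions had calls that could reach an unadjusted p under 0.05, and 3 of them did: RUNX1-r60 (chr21:35063515-35064090, 14213 bp beyond the upstream end; 2 of 4 and 2 of 3 Lgk974 libraries, 0 of 8 DMSO libraries; exact p = 0.0306) and RUNX2-r17 were higher and CBFB-r11 lower with Lgk974. RUNX1-r60 was called among the top peaks in 1 Lgk974 and 0 DMSO libraries. The 3 regions are 9.38% of the members tested, against 8.3% of all 43871 tested regions (4.07% higher and 4.23% lower), so the share lay near the background. None passed the Benjamini-Hochberg adjustment, among the members or among all regions; the smallest adjusted p of a member was 0.484. RUNX1-r10 could not reach the threshold with all peaks. The count was 2 without Lgk974 24 h replicate 1 or 3 or Lgk974 48 h replicate 3, 1 without Lgk974 24 h replicate 2 or 4, DMSO 48 h replicate 4 or Lgk974 48 h replicate 2, and 0 without any other library. Calling was higher with Lgk974 in 40 member regions, lower in 48 and equal in 33, with a median difference of 0.0 percentage points, against −4.17 over all regions.

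At 24 h, 4 member regions could be tested and none had an unadjusted p under 0.05, against 3.0% of all 8820 tested regions; 1 did without Lgk974 24 h replicate 2. At 48 h, 1 of 16 did, against 4.68% of all 22351 tested (1.77% in the higher direction): RUNX1-r1 (chr21:34743791-34744232) was called in 3 of 3 Lgk974 against 0 of 4 DMSO libraries at 48 h (exact p = 0.0286, adjusted p = 0.611), while at 24 h it was called in 2 of 4 Lgk974 against 3 of 4 DMSO libraries. Among the top peaks RUNX1-r1 was called in 1 Lgk974 library, at 48 h, and in 0 DMSO libraries. That the difference at RUNX1-r1 itself changed with time was not tested. RUNX1-r41 (chr21:34938085-34938535) was called in 0 of 7 Lgk974 against 3 of 8 DMSO libraries, too few to reach the threshold. With equal lists, 2 of 15 members tested over both times had an unadjusted p under 0.05, RUNX2-r15 and RUNX1-r10, against 19.2% of all 19813 tested. RUNX1-r10 was also the only one of 3 at 24 h (background 13.2%), and both were the 2 of 8 at 48 h (background 16.7%); since RUNX1-r10 was chosen from this contrast, nothing is read from these counts.

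Between the times, no member region reached the unadjusted threshold with all peaks. Comparing 48 h with 24 h, 0 of 16 members tested with Lgk974 had an unadjusted p under 0.05, against 0.798% of all 20043 tested, and 0 of 11 with DMSO, against 2.18% of 9634; leaving out DMSO 24 h replicate 4 or DMSO 48 h replicate 2 gave 1 with DMSO. In the equal lists 1 of 9 members with Lgk974 (background 4.52%, and 2.06% in the higher direction) and 0 of 2 with DMSO (background 7.53%) had one. The member with Lgk974 was RUNX1-r15 (chr21:34812475-34812931), called among the top peaks in 3 of 3 libraries at 48 h and 0 of 4 at 24 h (exact p = 0.0286, adjusted p = 0.632). With DMSO it was called among the top peaks in 4 of 4 libraries at 48 h and 2 of 4 at 24 h.

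Counts of member regions per library overlapped between the treatments. All 4 genes together had 41 to 93 regions called in the Lgk974 libraries (median 73) and 56 to 82 in the DMSO libraries (median 68.5). Equal lists gave RUNX2 9.43 ± 0.79 regions in Lgk974 libraries and 8.0 ± 0.76 in DMSO libraries (SD, n = 7 and 8), and CBFB 6.29 ± 0.76 and 7.62 ± 0.92. RUNX1 had 22.7 ± 1.6 and 23.4 ± 1.3, and RUNX3 5.29 ± 1.11 and 4.75 ± 1.98. The ranges overlapped for every gene: 8 to 10 and 7 to 9 for RUNX2, 5 to 7 and 6 to 9 for CBFB, 20 to 25 and 21 to 25 for RUNX1, and 4 to 7 and 2 to 7 for RUNX3. No test was made of these sums over members.

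**Figure D4:**
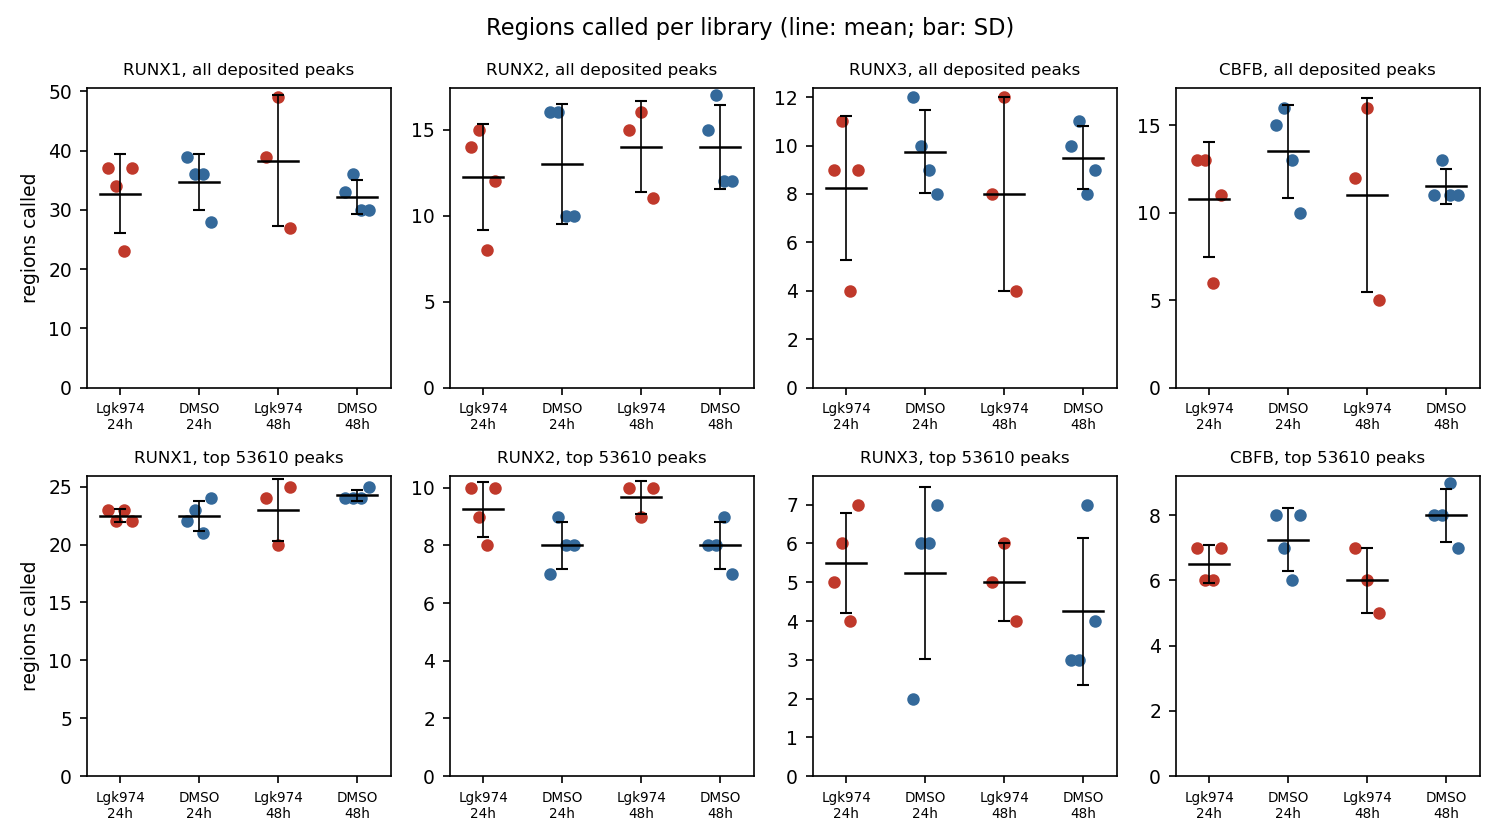
Number of regions called per library for each gene, with all deposited peaks (top) and with the top 53610 peaks of each library (bottom). Points are libraries, lines the means and bars the SD, in Lgk974 24 h, DMSO 24 h, Lgk974 48 h and DMSO 48 h; in the equal lists RUNX2 runs from 8 to 10 regions with Lgk974 and 7 to 9 with DMSO, and CBFB from 5 to 7 and 6 to 9.

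Genes that work with RUNX factors, or that RUNX factors are known to regulate in blood, bone and epithelium, were described in the same way. Among the regions within 50 kb of 32 cofactor and regulator genes, 166 could be tested and 12 were higher and 6 lower with Lgk974 at an unadjusted p under 0.05 (7.23% and 3.61%, against 4.07% and 4.23% of all tested regions); none passed the adjustment. CBFA2T3, a corepressor of the ETO family, had a region (chr16:88976934-88977426) called in 6 of 7 Lgk974 against 0 of 8 DMSO libraries (exact p = 0.00204, adjusted p = 0.304). Its gene ends had a peak in the same numbers of libraries, with the same exact p. That region overlaps the gene, so both values may rest on the same peaks and are not counted as separate results. CDK6, a cell cycle kinase, had a region (chr7:92664166-92664811) called in 7 of 7 Lgk974 against 1 of 8 DMSO libraries (exact p = 0.00204, adjusted p = 0.304). NCOR1, a scaffold of histone deacetylase complexes, had neighbouring regions that went opposite ways, with 0 of 7 Lgk974 against 6 of 8 DMSO libraries at chr17:15990885-15991516 and 5 of 7 and 0 of 8 at chr17:16002889-16003199 (exact p = 0.00612 each, adjusted p = 0.395). PIAS1, a SUMO ligase, had a region (chr15:68032647-68033084) in 5 of 7 Lgk974 against 0 of 8 DMSO libraries (exact p = 0.0102, adjusted p = 0.395). Those calls are with all peaks. Among the top peaks the CDK6 region was called in 6 Lgk974 and 0 DMSO libraries, the CBFA2T3 region in 3 and 0, the PIAS1 region in 1 and 0, and the NCOR1 regions in 0 and 5 and in 1 and 0. A peak lay at an end of 24 of the 32 genes in all 15 libraries, and at WWTR1, a transcriptional coactivator, in none. The share over all genes is not given here, so this count is not read as a trait of the list.

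Of 55 regions tested around 17 target genes, 2 were higher and 1 lower (3.64% and 1.82%), and none passed the adjustment. CDKN1A, the cell cycle inhibitor p21, had a region (chr6:36671663-36672277, 4186 bp from the gene) called in 6 of 7 Lgk974 against 0 of 8 DMSO libraries, and CD4, the T cell coreceptor that RUNX factors silence in mouse thymocytes, a region 23120 bp away (chr12:6765938-6766408) in 0 of 7 and 7 of 8 (exact p = 0.00204 and adjusted p = 0.304 each). IBSP, a bone matrix protein, had a region 37178 bp away (chr4:87849613-87850042) in 4 of 7 and 0 of 8 (exact p = 0.0306, adjusted p = 0.484). Among the top peaks the CDKN1A region was called in 2 Lgk974 and 0 DMSO libraries, the CD4 region in 0 and 1 and the IBSP region in none. With all peaks the median difference of the tested regions was 4.17 percentage points for either list, against 0.0 over all tested regions. With equal lists, 10 of 89 cofactor regions were higher and 5 lower, and 3 of 32 target regions higher and 1 lower, against 10.1% higher and 9.08% lower over all tested. Their medians were 4.17 percentage points for the cofactors and −6.25 for the targets, against −4.17 over all tested, so the median of the targets turned its direction between the kinds of list. Both lists together gave 21 regions with all libraries, and 9 without DMSO 48 h replicate 1, 3 or 4, 10 without DMSO 48 h replicate 2, and 11 to 13 without DMSO 24 h replicate 1, 2 or 4, Lgk974 24 h replicate 1, 2 or 4 or Lgk974 48 h replicate 1 or 2.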

How the data were processed

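ATAC-seq peaks of 15 libraries were used. Per the submitters' processing notes, the authors' work named hg38, MACS2, Bowtie2, Trimmomatic, Picard and SAMtools among others; which settings they chose, and whether reads were shifted for the transposase, is not given in the sources used here. Peaks were called per library. The deposited lists give for each peak a score, a fold over background (ratio), −log10 p and −log10 q values and a summit, as the authors' caller wrote them; only ranks by the deposited −log10 p, the summit and the peak's extent were used, with the −log10 q for a stricter threshold.

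Peaks on chromosomes 1 to 22 and X (1138 on other contigs left out; 1 damaged line read as chromosome 1) were merged by 1 bp overlap into regions. The share of libraries with a call was compared by two-sided exact permutation of labels, within time over both times (2450 assignments, smallest p 0.000408) or at a single time (70 or 35, smallest 0.0286), and adjusted by Benjamini-Hochberg over all regions of the series whose calls allow a p under 0.05. The test was checked on simulated calls. Gene positions and promoter sequences came from RefSeq tables on GRCh38.p14, which give no exons; the matches to motifs were made on those windows. No genome sequence was used here. Regions named were the chosen RUNX1 region, those within 1 kb of a gene end, the 3 with the largest difference per gene, those called in all libraries of a treatment and none of the other at a time, the best ranked per gene of those called in all 15, and up to 5 genes per list by the smallest p (some items are not reported here); RUNX2-r9, RUNX1-r9, RUNX1-r15, RUNX3-r3, RUNX3-r10, RUNX3-r11 and CBFB-r9 were named after their values were seen. The members and lists were chosen with earlier results of these data known. Alternatives were equal lists, a −log10 q of at least 5, a peak covering at least 0.5 of the region, windows of 250 bp on either side of summits, other distances, the replicate number as a block and leaving out libraries. Computation used numpy 2.4.6, scipy 1.17.1 and pandas 2.3.3 under Python 3.11.15, and figures matplotlib 3.10.9.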

Additional observations from a re-analysis of the deposited data

Results flagged for a closer look

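In 4 counts of member regions a library's gap to the nearest other of its group was large relative to the group's range; chance alone flags about 1 in 20 groups. In the DMSO 48 h counts the other libraries tie, so a small gap is enough. With all deposited peaks, Lgk974 24 h replicate 3, the library with the shortest list, called 41 regions of the 4 genes, against 69 to 73 in the other Lgk974 24 h libraries. DMSO 48 h replicate 2 called 13 CBFB regions, against 11 in each of the other DMSO 48 h libraries. In the equal lists DMSO 48 h replicate 3 called 49 regions of the 4 genes, against 43 in each of the others, and DMSO 48 h replicate 4 called 25 RUNX1 regions, against 24 in each of the others.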

How the results depend on the processing

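The count of member regions with an unadjusted p under 0.05 over both times, 3, was 2 in the equal lists, 3 with a peak covering at least 0.5 of the region, 3 with windows around summits and 2 without the 3 libraries that stood apart, and 0 at a −log10 q of at least 5; leaving out a library gave 0 to 2. At 24 h it was 0, and 1 in the equal lists and 0 to 1 without a library. At 48 h it was 1, and 2 in the equal lists, 2 with the coverage rule and 0 inside the genes only. Between 48 h and 24 h it was 0, and 1 in the equal lists with Lgk974 and 0 to 1 without a library with DMSO. The cofactor and target genes gave 21, and 8 for regions inside the genes, 36 within 100 kb, where fewer or more regions enter by construction, and 9 to 18 without a library. The 1 region in the equal lists at 24 h, and 1 of the 2 at 48 h and over both times, was RUNX1-r10, chosen from that contrast, so nothing is read from these counts. RUNX1-r10 differed by −29.17 percentage points, −100 in the equal lists (also −100 without the 3 libraries) and −37.5 to −12.5 without a library. With the coverage rule it differed by −87.5, which restates the widths of its peaks. RUNX2-r15 differed by 12.5 points, and by −4.17 at the stricter −log10 q and −4.17 with the coverage rule, where 5 Lgk974 and 6 DMSO libraries called it. The cause of the other changes was not tested. Gene ends gave 0 under every alternative run, but no more than 1 member gene end could be tested in any of them, which says nothing of stability.

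With the replicate number as a block, 0 member regions of 2 that could be tested and 5 list regions of 7 (71.4%) had an unadjusted p under 0.05, against 33.1% of all 1023 regions the block could test, and RUNX2-r15 in the equal lists had an exact p of 0.0312. Calls of libraries with the same number correlated at 0.157, 0.207, 0.34 and 0.07 at 24 h and 0.114, 0.087 and 0.176 at 48 h. These values were low, yet every Lgk974 library correlated best with the DMSO library of its own number, except replicate 1 at 48 h. The labels do not say what the numbers mean, and whether they pair libraries was not tested. The main tests did not use the numbers, so their p-values leave out any such pairing. At a single time or between times the block could not reach the threshold, nor could the comparisons that involve Lgk974 at 48 h with a library of theirs left out, or either time without the 3 libraries, so they gave no value. The unknown depth limits all calls: a weak peak enters or leaves a list with its length.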
